A study of Mus musculus with 6 samples.

Results

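The angiotensin pathway was followed through 7 of its genes, taken from a table of 54433 gene rows: Agt for the precursor, Ace for the converting enzyme, Agtr1a and Agtr2 for the receptors, and Enpep, Lnpep and Mme for peptidases that cut or bind angiotensin peptides. The 7 were chosen by gene name, from a contrast whose result was already known, so their values are given as a description without a test. RNA was sequenced from 6 libraries of MC3T3-E1, a mouse cell line from calvaria that is used as an osteoblast model; the title given to the series speaks of fluoride-tolerant mice, whereas all sample labels name the cell line, and these were followed. The FR group held 3 libraries of cells adapted stepwise to fluoride, in a gradient of 10 ppm, until a line resistant to 30 ppm was obtained, and their treatment is labelled as a gradient of 30 ppm fluoride. The WT group held 3 libraries of the unadapted line in plain medium, labelled control, and both groups shared the same base medium with 10% fetal bovine serum and antibiotics. Long exposure, selection of surviving cells and fluoride in the medium cannot be told apart in this design, and no label states that replicates were grown separately, so the p-values given below cover the variation among these 6 libraries, which may be technical.

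Angiotensinogen is a secreted protein of the serpin family that has lost inhibitor activity and serves as the source of all angiotensin peptides. Renin releases angiotensin I from it, the angiotensin-converting enzyme trims this to angiotensin II, and angiotensin II acts on type 1 and type 2 receptors. Aminopeptidase A, encoded by Enpep, removes the first residue of angiotensin II to give angiotensin III, aminopeptidase N gives angiotensin IV, and neprilysin, encoded by Mme, cuts angiotensin I to a heptapeptide that the receptor Mas binds. The liver is the main source of circulating angiotensinogen, and bone cells have been described to carry parts of a local system.

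The precursor was higher and the membrane peptidases were lower in FR cells, while the converting enzyme and both receptors were at or near 0 in both groups. Agt was 22.2-fold higher in FR libraries than in WT libraries, Enpep had 1 count over all FR libraries, Mme was 15.9-fold lower and Lnpep 1.21-fold lower in FR. Of the 7 genes, 4 passed the filter on low counts and 3 did not, and Enpep passed it through the WT libraries alone. Agt owed its pass to the FR libraries, as its WT libraries had only 25, 13 and 8 counts. Those 4 were all past an adjusted p of 0.05 (edgeR quasi-likelihood test with Benjamini-Hochberg adjustment), against 70.1% of all 14889 genes tested, with 34.6% of genes higher and 35.5% lower in FR. Nothing is read from that count, since the members were chosen on this contrast.

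The start regions of Agt and Enpep are shown because these genes had the highest and the lowest fold change of the 4 tested members. Both sequences are from RefSeq for the build GRCm38.p6 and span 250 bases before to 50 bases after the annotated start of transcription, written 5′ to 3′ on the strand of the gene. Agt lies at chr8:124569657-124569956 on the minus strand and Enpep at chr3:129332700-129332999 on the minus strand. Capitals mark matches to the motifs searched, on either strand.
Agt: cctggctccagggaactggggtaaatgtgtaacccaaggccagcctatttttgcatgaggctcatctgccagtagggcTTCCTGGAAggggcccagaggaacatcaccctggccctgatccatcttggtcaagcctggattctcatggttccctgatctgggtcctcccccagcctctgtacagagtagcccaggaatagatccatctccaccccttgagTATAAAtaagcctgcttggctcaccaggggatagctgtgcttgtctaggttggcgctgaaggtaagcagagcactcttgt
Enpep: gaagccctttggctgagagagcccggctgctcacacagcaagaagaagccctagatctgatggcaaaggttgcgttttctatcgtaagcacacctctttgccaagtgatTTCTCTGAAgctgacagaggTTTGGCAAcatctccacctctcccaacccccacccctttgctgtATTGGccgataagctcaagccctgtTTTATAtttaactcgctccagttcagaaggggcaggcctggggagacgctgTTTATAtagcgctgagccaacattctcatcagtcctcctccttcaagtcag
The motifs searched were TATAAA for the TATA box, CCAAT, the E-box CACGTG, TTGCNNAA for C/EBP factors, TTCNNNGAA for STAT factors, and the NF-kB consensus by its name. In the Agt window TATAAA began at position -30 and a STAT-type match at position -172, with positions counted from the start site. In the Enpep window the complement of the TATA box, TTTATA, began at -52 and again at -1, the complement of the CCAAT box at -77, a C/EBP-type match at -121 and a STAT-type match at -141. Among 32851 windows of the same length, TATAAA was found in 13.6%, CCAAT in 37.4%, CACGTG in 7.15%, the C/EBP letters in 10.8%, the STAT letters in 8.30% and the NF-kB letters in 8.46%. Windows were available for 6 of the 7 genes, Agtr1a having none. In the other genes the matches were a TATA box complement in Ace at -31, CCAAT complements in Ace and Agtr2, a C/EBP-type match in Lnpep at -103, and in Mme a STAT-type match, CCAAT matches and an NF-kB match. A match describes letters in a window and says nothing of binding.

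Agt (ENSMUSG00000031980, on mouse chromosome 8) encodes angiotensinogen, the precursor. It had 276, 336 and 242 counts in the FR libraries, against 25, 13 and 8 counts in the WT libraries. Scaled to depth these were 14.3, 13.4 and 11.4 CPM (counts scaled to a common library size) in FR and 0.916, 0.504 and 0.312 CPM in WT. Every FR library lay above every WT library, with a wide gap between the lowest FR and the highest WT library. The means were 13.1 ± 1.49 CPM in FR and 0.578 ± 0.309 CPM in WT (SD, n = 3 each), and the fitted log2 fold change was 4.47 ± 0.20 (SE). The 3 FR libraries spread by 11.4% of their mean and the 3 WT libraries by 53.4%, so the size of the fold depended on the few WT reads, and it ranged between 4.18 without WT replicate 3 and 4.97 without WT replicate 1. Among all tested genes Agt was in place 9 from the highest log2 fold change. In bulk RNA, a change in the number of cells that make a transcript and a change in the amount per cell cannot be told apart.

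The tested genes with a proper symbol on either side of Agt in fold change were Ccl20 and Pgm5. Ccl20, a chemokine that attracts cells bearing CCR6, had 21, 29 and 28 counts in FR against 1, 0 and 1 in WT, a ratio of summed counts of 46.9 with a 95% exact counting interval of 12.6 to 394. Pgm5, a phosphoglucomutase-related protein of cell adhesion sites, had 74, 115 and 84 counts in FR against 10, 2 and 8 in WT, with a log2 fold change of 4.0 ± 0.31. Agt differed from both in its depth-scaled level, with a mean of 13.1 CPM in FR against 1.19 for Ccl20 and 4.14 for Pgm5. These CPM are not scaled to gene length, which was 1891 bases for Agt, 1417 for Ccl20 and 3239 for Pgm5.

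**Figure D1:**
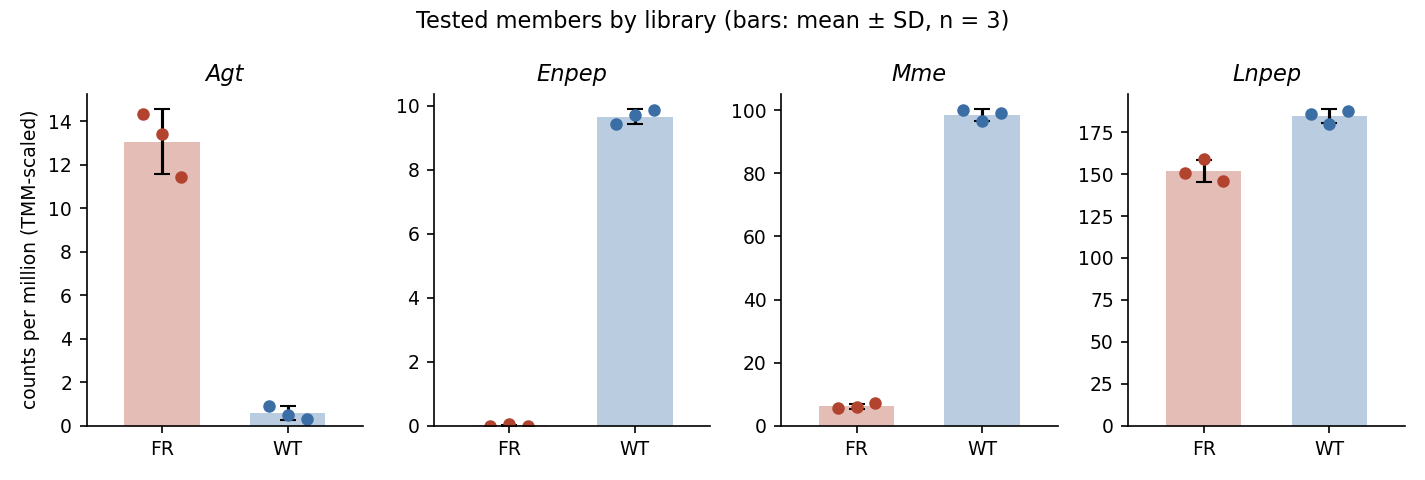
Depth-scaled CPM of Agt, Enpep, Mme and Lnpep in each library (points), with the mean and SD of the 3 libraries of a group (bars), FR left of WT and each gene on its own axis from 0. Agt is higher in all FR libraries, and Enpep, Mme and Lnpep are lower in all FR libraries. The members were chosen on this contrast, in which 70.1% of all tested genes passed an adjusted p of 0.05.

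The converting enzyme and the receptors gave almost no reads at a depth of 1.92e+07 to 2.71e+07 counts a library. Ace (ENSMUSG00000020681), which turns angiotensin I into angiotensin II, had 0, 0 and 1 counts in FR libraries and 0, 0 and 0 in WT libraries. Agtr1a (ENSMUSG00000049115), the type 1 receptor that mediates vasoconstriction and aldosterone release, had 0, 1 and 0 counts in FR and 0, 0 and 0 in WT. Agtr2 (ENSMUSG00000068122), the type 2 receptor, had 0, 0 and 0 counts in FR and 0, 0 and 1 in WT. No direction can be read from a single read, and a count of 0 still allows up to 3 counts, which is 0.110 to 0.156 CPM in these libraries. These limits cover counting error only. Agtr1b, the second mouse type 1 receptor gene, had 0 counts in all 6 libraries, so no angiotensin II receptor was detectable at this depth beyond a single read in any library.

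A row inside the Agtr1a locus did carry reads. Gm48161, which the GENCODE annotation of GRCm38 places on the same strand within an intron of Agtr1a, had 141.64, 203.74 and 164.85 expected counts in FR against 419.71, 404.86 and 343.47 in WT, with a log2 fold change of -0.93. It was singled out after its values were seen. Its exons and those of Agtr1a do not overlap in that annotation, which is not of the build used for the counts. The annotation release and strand setting of the counts are not given. How reads were divided between it and Agtr1a therefore cannot be checked here. The rows inside the loci of Enpep, Lnpep and Ace held at most 2, 4.67 and 0 counts in any library.

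Enpep (ENSMUSG00000028024, chromosome 3) encodes aminopeptidase A, the membrane enzyme that turns angiotensin II into angiotensin III. It had 0, 1 and 0 counts in the FR libraries, against 257, 250 and 253 counts in the WT libraries. The WT libraries stood close together, at 9.42, 9.70 and 9.87 CPM, and the FR libraries at 0, 0.0400 and 0 CPM. The groups were fully apart, with 1 read in total in FR and 760 in WT. The ratio of these sums, FR over WT, was 0.00158 with a 95% exact counting interval of 4.00e-05 to 0.00884, which is 632-fold lower in FR with bounds of 113 and 25001. The fitted log2 fold change of -8.88 depends on the prior count added to near-empty libraries. Its SE of 0.33 understates the uncertainty, as the counting interval above is far wider. Without FR replicate 2, the one with the read, the fitted value was -10.85. Without that library both remaining FR libraries were at 0, and against a floor of 3 counts a library Enpep was at least 65.0-fold lower.

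Mme (ENSMUSG00000027820, chromosome 3) encodes neprilysin, a membrane endopeptidase that also degrades bradykinin, natriuretic peptides and enkephalins. It had 107, 147 and 151 counts in the FR libraries and 2728, 2488 and 2541 counts in the WT libraries. These were 5.56, 5.87 and 7.13 CPM in FR and 100.0, 96.5 and 99.1 CPM in WT. All FR libraries lay far below all WT libraries, and the transcript was still clearly present in FR, unlike that of Enpep. The means were 6.19 ± 0.833 CPM in FR and 98.5 ± 1.78 CPM in WT (SD, n = 3 each), with a log2 fold change of -3.99 ± 0.06. Over all tested genes 229 were lower in FR by 16-fold or more, with Mme just outside them, and 11 were higher by as much, with Agt among them.

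Lnpep (ENSMUSG00000023845, chromosome 17) encodes the insulin-regulated aminopeptidase, which travels with the glucose transporter GLUT4, cleaves oxytocin and vasopressin, and binds angiotensin IV. It had 2902, 3985 and 3086 counts in the FR libraries and 5079, 4642 and 4813 in the WT libraries. Depth-scaled, these were 151, 159 and 146 CPM in FR and 186, 180.1 and 188 CPM in WT. The groups did not overlap, with 159 CPM in the highest FR and 180.1 CPM in the lowest WT library. The means were 152 ± 6.82 CPM in FR and 185 ± 4.01 CPM in WT (SD, n = 3 each), and the log2 fold change was -0.28 ± 0.03. Lnpep was in place 4471 from the lowest log2 fold change, in the bulk of the genes, whereas Enpep was in place 9 and Mme in place 232 from the lowest.

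**Figure D2:**
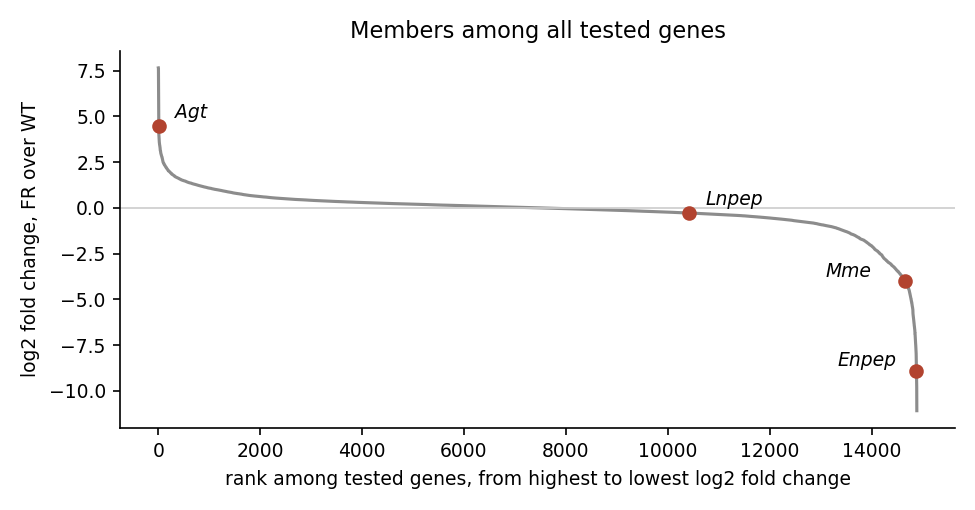
Log2 fold change, FR over WT, of all 14889 tested genes (line) ordered from highest to lowest, with the 4 tested members marked. Agt stands at the upper end, in place 9, Enpep and Mme stand at the lower end, and Lnpep lies in the flat middle of the curve; the fitted value of Enpep depends on the prior count.

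The order of the genes by level differed between the groups. Levels of different genes are compared here as depth-scaled CPM per kilobase of the deposited gene length. In FR cells Lnpep came first at 12.6 ± 0.566, followed by Agt at 6.91 ± 0.786 and Mme at 1.85 ± 0.249 CPM per kilobase (SD, n = 3). Agtr1a, Ace, Enpep and Agtr2 followed at or near 0, with ranges that overlapped, so their order carries no information. In WT cells Mme came first at 29.5 ± 0.531, followed by Lnpep at 15.3 ± 0.332, Enpep at 2.31 ± 0.0546 and Agt at 0.305 ± 0.163 CPM per kilobase (SD, n = 3), while Agtr2, Ace and Agtr1a overlapped at or near 0. The first 3 genes in FR and the first 4 in WT had ranges over the 3 libraries that did not overlap with that of the next gene.

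Set against all tested genes by level per kilobase, Agt stood at percentile 47.4 in FR and 7.46 in WT, a middling transcript in FR and a scarce one in WT. Mme stood at percentile 27.1 in FR and 80.8 in WT, and Enpep at 0.275 in FR and 28.1 in WT. Lnpep hardly moved, at percentile 61.3 in FR and 65.5 in WT. The per-length ratio of Agt to Mme was 4.56, 4.04 and 2.83 in the FR libraries and 0.0162, 0.00924 and 0.00557 in the WT libraries. Precursor transcript thus exceeded neprilysin transcript in every FR library and was below it in every WT library. The ratio of Lnpep to Mme was 7.53, 7.52 and 5.67 in FR libraries and 0.517, 0.518 and 0.526 in WT libraries, also without overlap.

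The rest of the renin-angiotensin system was read from a list of 23 further genes, 22 of which had a row and 13 of which were tested. Of these 13, 6 rose, 5 fell and 2 stayed above the threshold in FR (edgeR quasi-likelihood test, Benjamini-Hochberg adjusted over all genes), with a median log2 fold change of 0.05 against 0.0029 over all genes tested. The 6 rises were all small, at a log2 fold change of 0.13 to 0.35, and the falls reached -5.33. Renin, which starts the cascade, was at 0 counts in all 6 libraries for Ren1. The heptapeptide receptor Mas1 had 3, 7 and 5 counts in FR and 8, 6 and 2 in WT. Neither passed the filter, and the 9 untested genes of the list, 5 of them at 0 throughout, had at most 8 counts in any library.

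The largest fall among these other genes was in a peptidase that follows Enpep in the cascade. Anpep, which encodes aminopeptidase N and turns angiotensin III into angiotensin IV, had 8, 10 and 20 counts in FR libraries and 670, 588 and 592 in WT libraries. Its means were 0.587 ± 0.310 CPM in FR and 23.5 ± 0.932 CPM in WT (SD, n = 3 each), and it fell by 5.33 ± 0.16 on the log2 scale (edgeR adjusted p = 1.89e-21). Rnpep, which encodes aminopeptidase B, averaged 18.1 ± 0.683 CPM in FR and 36.6 ± 3.69 CPM in WT and fell by 1.02 ± 0.07 (edgeR adjusted p = 2.09e-12). Rnpep lay near 2-fold, at -0.99 without FR replicate 2 and -0.94 without WT replicate 3. Its fall and that of Anpep stand beside 35.5% of all tested genes lower in FR.

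Receptor partners of the pathway moved less. Atp6ap2, the prorenin receptor and an accessory subunit of the vacuolar proton pump, averaged 124 ± 1.86 CPM in FR and 161 ± 7.54 CPM in WT, a log2 fold change of -0.38 ± 0.03 (edgeR adjusted p = 4.49e-11). Igf2r, the mannose-6-phosphate receptor that also takes up prorenin, averaged 259 ± 5.62 CPM in FR and 513 ± 14.3 CPM in WT, a log2 fold change of -0.98 ± 0.03 (edgeR adjusted p = 7.60e-23). Arap1, a protein with ArfGAP and RhoGAP domains, fell by 0.80 ± 0.07 on the log2 scale. Mtus1, which binds the type 2 receptor, averaged 23.6 ± 0.703 CPM in FR and 18.5 ± 0.639 CPM in WT and rose by 0.35 ± 0.07 (edgeR adjusted p = 2.72e-05). Agtrap, a negative regulator of the type 1 receptor, averaged 19.3 ± 1.03 CPM in FR and 16.3 ± 1.53 CPM in WT and rose by 0.24 ± 0.08 (edgeR adjusted p = 0.00689), but its adjusted p was 0.0549 without FR replicate 2 and 0.0791 without WT replicate 2.

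Besides Anpep and Rnpep, 6 further peptidases of the list were tested, of which 4 rose and 2 did not pass. Dpp3, which degrades angiotensin peptides, averaged 98.5 ± 2.18 CPM in FR and 81.7 ± 1.7 CPM in WT and rose by 0.27 ± 0.03 on the log2 scale. Nln (0.23 ± 0.04), Thop1 (0.21 ± 0.04) and Prep (0.13 ± 0.03), endopeptidases that can form the heptapeptide from angiotensin I or II, rose as well. The carboxypeptidases Prcp and Ctsa did not pass, at log2 fold changes of 0.05 ± 0.04 (edgeR adjusted p = 0.286) and -0.05 ± 0.03 (edgeR adjusted p = 0.0892). Ctsa passed without a filter on low counts, at -0.08 (edgeR adjusted p = 0.0360).

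**Figure D3:**
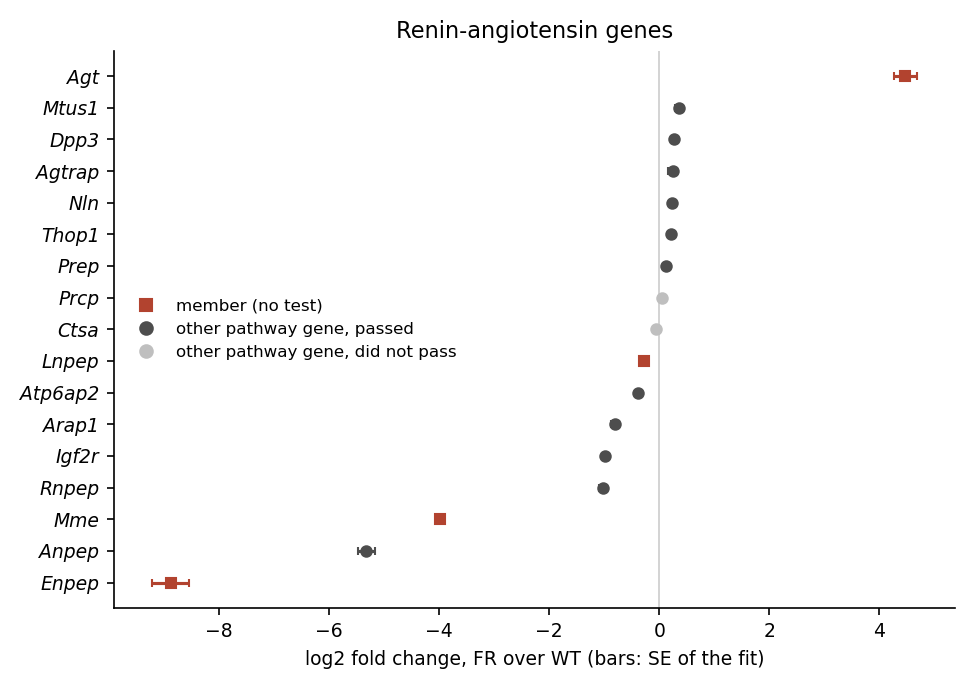
Log2 fold change, FR over WT, with its standard error, for the 4 tested members (squares, no test) and the 13 other tested renin-angiotensin genes (dots, dark where they passed an adjusted p of 0.05). Agt stands alone on the right at 4.47, most genes lie within 1 of 0, and Mme, Anpep and Enpep lie on the left. The fitted value of Enpep depends on the prior count, and its standard error is too narrow.

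Genes downstream of the receptors, which themselves had at most 1 read in any library, changed in both directions. Of 28 genes of type 1 receptor signalling, 25 were tested: 9 rose, 12 fell and 4 did not pass, and the median log2 fold change was -0.14. Itpr3, an inositol trisphosphate receptor, rose by 0.56 ± 0.03 and Arrb2, which encodes a beta-arrestin, by 0.67 ± 0.06 on the log2 scale, while Plcb4, a phospholipase C that Gq activates, and Itpr2 fell, at log2 fold changes of -3.34 ± 0.06 and -2.55 ± 0.09. Of 16 genes that angiotensin II is known to induce, 15 were tested, of which 4 rose, 8 fell and 3 did not pass, with a median of -0.31. Rcan1, a calcineurin inhibitor, averaged 49.7 ± 0.870 CPM in FR and 16 ± 0.517 CPM in WT, and Rgs2, which damps Gq signalling, 17.3 ± 0.318 CPM in FR and 6.49 ± 0.780 CPM in WT. Fibronectin (Fn1) averaged 2206 ± 11.1 CPM in FR and 5148 ± 109 CPM in WT, and the adhesion molecule Vcam1 78.7 ± 3.18 CPM in FR and 217 ± 1.2 CPM in WT. Shares of calls in these lists stand beside the 70.1% of all tested genes, and nothing particular to the lists is read from them.

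Of 13 transcription factors and nuclear receptors described to act on Agt, 10 were tested, of which 3 rose, 5 fell and 2 did not pass, with a median of -0.39. The estrogen receptor Esr1 averaged 0.219 ± 0.122 CPM in FR and 6.26 ± 0.301 CPM in WT, a log2 fold change of -4.74 ± 0.26 (edgeR adjusted p = 7.88e-16). Esr1 had only 3, 9 and 3 counts in the FR libraries, so the size of its fall rests on few reads. It was -5.36 without FR replicate 2. The rises were small: Usf1, which binds E-boxes, rose by 0.36 ± 0.05 and the NF-kB subunit Rela by 0.17 ± 0.04 on the log2 scale.

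Peptides that share their peptidases with angiotensin were covered by 25 genes of the kinin, natriuretic and vasopressin systems, of which 9 were tested, 3 rose, 5 fell and 1 did not pass, with a median of -0.12. Adm, which encodes adrenomedullin, averaged 6.67 ± 1.09 CPM in FR and 1.31 ± 0.140 CPM in WT, and Kng2, a kininogen, 3.17 ± 0.411 CPM in FR and 1.40 ± 0.402 CPM in WT. The bradykinin receptor Bdkrb2 averaged 2.22 ± 0.293 CPM in FR and 5.41 ± 0.399 CPM in WT, and the natriuretic peptide clearance receptor Npr3 22.3 ± 1.01 CPM in FR and 34.4 ± 0.443 CPM in WT. Of 12 other peptidases of the families of Enpep, Lnpep and Mme, 8 were tested, of which 1 rose, 5 fell and 2 did not pass, with a median of -0.53. The cytosolic puromycin-sensitive aminopeptidase Npepps rose by 0.41 ± 0.03, while Rnpepl1, a relative of aminopeptidase B, and the endothelin-converting enzyme Ece1 fell, at log2 fold changes of -3.35 ± 0.12 and -0.74 ± 0.05.

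Agt belongs by sequence to the serpins, and 63 other rows of the deposited annotation carry that domain, of which 21 were tested. Among them 4 rose, 11 fell and 6 did not pass, beside 34.6% of all tested genes higher and 35.5% lower in FR. The same annotation places 48 rows besides the 7 genes in its renin-angiotensin pathway, of which 7 were tested, 3 rose, 2 fell and 2 did not pass. Both sets were drawn from the annotation after the data had been seen.

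Genes next to Agt on chromosome 8 moved far less than Agt. Of the 5 nearest tested genes on each side, 9 rose, 1 did not pass, and log2 fold changes lay between -0.11 and 1.18 with a median of 0.25, beside 34.6% of all tested genes higher in FR. The number that rose was 6 without a filter, 7 with DESeq2 and 7 to 9 with 1 library left out. The 3 nearest on one side were Galnt2 at 0.19 ± 0.04, Pgbd5 at 1.18 ± 0.11 and Cog2 at -0.11 ± 0.06, and on the other side 2310022B05Rik at 0.18 ± 0.03, Ttc13 at 0.29 ± 0.04 and Arv1 at 0.62 ± 0.07. Of these 6, Cog2 alone did not pass (edgeR adjusted p = 0.0876), and it passed as a fall without a filter and without FR replicate 1 or WT replicate 1. Pgbd5, a gene derived from a transposase, averaged 14.8 ± 1.93 CPM in FR and 6.56 ± 0.579 CPM in WT.

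The surroundings of the 3 peptidase genes were mixed. Around Enpep 2 genes rose, 4 fell and 4 did not pass, with a median of -0.13. Tifa, an adaptor protein of NF-kB signalling, fell with a log2 fold change of -4.55 and was picked out after its values were seen. Around Mme 3 rose, 6 fell and 1 did not pass, with a median of -0.23 and a range of -2.26 to 1.5. The number that fell around Mme was 4 to 5 with 1 library left out. Around Lnpep 2 rose, 1 fell and 7 did not pass, with a median of 0.09. Gene order was taken from the GRCm38 annotation, and copy number was not measured.

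**Figure D4:**
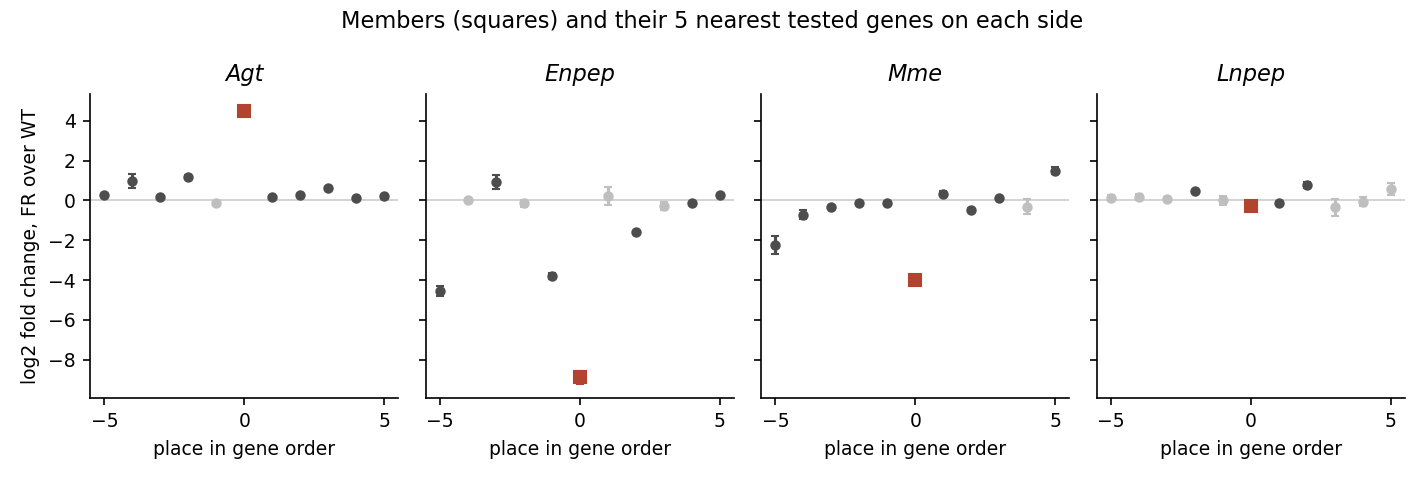
Log2 fold change, FR over WT, of Agt, Enpep, Mme and Lnpep (squares) and of their 5 nearest tested genes on each side (dots, dark where they passed an adjusted p of 0.05) by place in gene order, with standard errors. Agt and Mme stand away from all their neighbours, Enpep has Tifa among its neighbours far below 0, and Lnpep lies among its neighbours. The standard error of Enpep is too narrow, as its FR libraries are near-empty.

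Among genes with a proper symbol, a mean of at least 5 CPM and no place in the lists, those whose pattern over the 6 libraries was most like that of Agt were Setdb1 (Pearson r = 0.9995 on log2 CPM), Mrps22 (0.9992), Rpl7a-ps11 (0.9986), Mrpl45 (0.9983) and Clcn7 (0.9983). Their own log2 fold changes were 0.19 to 0.82, so they are alike in shape and not in size. The 6 libraries form 2 groups, with every FR library shallower than every WT library, and 24.7% of the other 14888 tested genes had an r over 0.9, so the coefficient mostly states that a gene separates the groups. With a smaller prior count 3 of these 5 genes remained among the first 5.

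Markers of cell types known to make or sense angiotensin were read beside these results. Markers of the labelled type, osteoblast, were only partly detected. Of 11 markers, 7 were tested and all 7 fell, beside 35.5% of all tested genes lower in FR. The summed level of the 11 was 1076 to 1114 CPM in FR libraries and 6508 to 6650 CPM in WT libraries. Ibsp was at 0, and Sp7, Alpl and Bglap had at most 8 counts in any library of either group. Of 8 hepatocyte markers 4 were tested, Apob rose, and the sum was 7.87 to 8.69 CPM in FR and 6.34 to 8.46 CPM in WT, with albumin at 76, 98 and 76 counts in FR and 114, 92 and 128 in WT. Of 8 adipocyte markers only Fabp4 was tested and it rose, the sum was 1.04 to 1.65 CPM in FR and 0.507 to 1.09 CPM in WT, and Lep, Cfd and Retn were at 0. For Enpep, which pericytes express, 3 of 8 smooth muscle and pericyte markers were tested, Des rose and Acta2 and Smtn fell, and the sum was 229.7 to 232 CPM in FR and 690.2 to 699.7 CPM in WT, while the pericyte marker Kcnj8 was at 0. Of 6 astrocyte markers 3 were tested and 2 fell, at 86.9 to 95.1 CPM in FR and 156 to 161 CPM in WT. Of 6 endothelial markers 3 were tested, Vwf rose and Emcn fell, with sums of 3.54 to 4.83 CPM in FR and 4.19 to 4.62 CPM in WT, and of 6 macrophage markers only Cd68 was tested and rose, at 2.28 to 2.65 CPM in FR and 0.351 to 0.737 CPM in WT, with Tyrobp at 0. Their part in the values of the 7 genes was not tested.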

How the data were processed

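Poly(A)-selected RNA of 6 libraries was sequenced as paired reads, per the labels' protocols. Per the submitters' processing notes, fastp, HISAT and RSEM were used with the build GRCm39; versions, settings, annotation release and strand setting are not given in the sources used here. The deposited table holds expected counts per gene, which RSEM divides among genes by estimation, not scaled to depth; it also gives a gene length. Of its rows, 733 carried no gene name.

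Expected counts were rounded to whole numbers, filtered with filterByExpr, scaled with TMM factors and compared, FR against WT, by the robust quasi-likelihood test of edgeR 4.0.16 (with limma 3.58.1) in R 4.3.3, with Benjamini-Hochberg adjustment over 14889 genes and a threshold of 0.05. CPM use the TMM factors. Each log2 fold change is that of FR over WT. Its SE is the size of that value divided by the square root of the F statistic of the fit, which is too narrow for Enpep. Depth was 1.92e+07 to 2.71e+07 counts a library. Within a group, chi-square per degree of freedom between 2 libraries was 2.34 to 3.37, so no library repeats another. Counting intervals are exact binomial, at 95%. Same-numbered libraries of the groups did not deviate together, and numbers were not used as pairs.

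Genes named are the 7 members, the tested genes of the pathway list, the 2 of smallest adjusted p in each direction of the other lists, the 3 nearest tested neighbours of Agt on each side, the 5 most like it and the 2 beside it in fold change, with the exceptions marked in the text. Members and lists were chosen with earlier results of these data known. Genes of chromosome 18 and 3 genes that this rule or the text would name are not reported here. Gene order and start regions came from GENCODE and RefSeq tables of GRCm38, not the build of the counts. Of the tested genes, 96.3% were found in the GENCODE table by identifier. The steps were tested on simulated data in which far fewer genes changed than were called here. That test does not show how the steps behave in a contrast of this extent. Alternatives tried were median-of-ratios factors, library size alone, other filters, a fit that is not robust, a replicate block, DESeq2 1.42.0, TPM, and each library left out; leaving out assembled loci was added after seeing the data. Plots used matplotlib 3.10.9 (Python 3.11.15).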

Additional observations from a re-analysis of the deposited data

How the results depend on the processing

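The log2 fold changes of Agt, Mme and Lnpep kept their sign under every alternative run, and with 1 library left out they ranged over 4.18 to 4.97 for Agt, -4.11 to -3.94 for Mme and -0.32 to -0.25 for Lnpep. That of Enpep ranged over -10.85 to -8.45, with -10.85 without FR replicate 2, which leaves no Enpep read in FR. With the replicate block, Agt was at 4.49, Enpep at -8.89, Mme at -3.99 and Lnpep at -0.28, and 10292 genes passed; same-numbered libraries correlated at -0.017, -0.004 and -0.028 after removing group means. Over all settings 9518 (DESeq2) to 10931 genes (no filter) passed, and 10075 without assembled loci. Without a filter, which lets other genes count as neighbours, Agt had 1 lower neighbour, Enpep 0 higher and 1 lower, and Mme 1 higher and 2 lower; with DESeq2 Enpep had 1 higher. With 1 library left out, lower neighbours of Agt numbered 0 to 1, higher neighbours of Enpep 1 to 2, lower neighbours of Mme 4 to 5 and lower neighbours of Lnpep 0 to 1. As TPM, which by construction sum to a fixed total, levels in FR were 24.4 for Lnpep, 13.4 for Agt and 3.57 for Mme, and in WT 59.4 for Mme, 30.9 for Lnpep, 4.66 for Enpep and 0.618 for Agt, in the same order. Depth limits Ace, Agtr1a and Agtr2, where a direction could not be read from 0 or 1 counts.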
